A study of Mus musculus with 7 samples.

Results

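The 8 epithelial keratins Krt5, Krt7, Krt8, Krt14, Krt15, Krt17, Krt18 and Krt19 were taken by symbol from a single-cell count matrix of 27998 genes, in which each stood on 1 row and 43 other keratin genes were also present. The cells came from the abdominal mammary glands, without their lymph nodes, of 3 young (3 to 4 months) and 4 aged (13 to 14 months) nulliparous female mice. All 7 animals were of a mixed FVB, 129 and C57BL/6J background, with no transgene or treatment named in the labels, and were taken in diestrus. Of 13684 cells, the deposited annotation named 1670 myoepithelial, 2138 luminal hormone-sensing (HS), 4820 luminal alveolar (AV) and 273 luminal HS-AV cells, and the remainder belonged to 9 stromal and immune types. Each mouse was 1 library, and a mouse entered a type when it held at least 3 cells of it. Levels are given in CPM, the unique molecular identifiers (UMIs) of a gene divided by all UMIs of that mouse and cell type and scaled to 1000000. Because each molecule was counted once near its 3′ end, a level does not scale with transcript length.

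Keratins are the intermediate filament proteins of epithelia, and a filament is built from obligate pairs of a type I and a type II chain. In the mammary gland the outer, contractile myoepithelial layer is known for KRT5 with KRT14 and KRT17, and the inner luminal layer for KRT8 with KRT18 and KRT19. KRT7 is a further type II chain of simple epithelia, and KRT15 a type I chain of basal layers of stratified epithelia. The authors clustered these cells on the same counts and named the layers with keratins, so levels in one type against another are described here without a test. The age groups come from the labels, and age is tested within a type.

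In the GENCODE annotation of GRCm38 (mm10), Krt15, Krt19, Krt14 and Krt17, all type I, lie within chr11:100131758-100261029, each on the minus strand. The type II genes Krt7, Krt5 and Krt8 lie within chr15:101411043-102032027 together with Krt18, the type I gene beside Krt8. Krt8 (chr15:101996698-102004482, minus strand) and Krt18 (chr15:102028180-102032027, plus strand) are 23698 bases apart and point away from each other. RefSeq start windows (GRCm38.p6) were matched for 5 of the 8 keratins. The sequences of Krt8 and Krt18 are shown because these genes had the most alike levels over the cell types, and that of Krt5 because it is the type II gene of the other layer. Each runs 5′ to 3′ on the gene's strand, at chr15:102004483-102004592 (minus), chr15:102027966-102028179 (plus) and chr15:101712906-101713155 (minus), and stops before the first annotated exon base.
Krt8: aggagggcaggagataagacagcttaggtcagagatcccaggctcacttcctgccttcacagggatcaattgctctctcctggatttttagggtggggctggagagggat
Krt18: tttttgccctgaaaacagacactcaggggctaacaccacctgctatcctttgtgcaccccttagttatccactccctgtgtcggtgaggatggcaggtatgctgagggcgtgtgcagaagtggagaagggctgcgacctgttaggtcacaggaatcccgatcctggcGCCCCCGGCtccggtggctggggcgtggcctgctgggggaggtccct
Krt5: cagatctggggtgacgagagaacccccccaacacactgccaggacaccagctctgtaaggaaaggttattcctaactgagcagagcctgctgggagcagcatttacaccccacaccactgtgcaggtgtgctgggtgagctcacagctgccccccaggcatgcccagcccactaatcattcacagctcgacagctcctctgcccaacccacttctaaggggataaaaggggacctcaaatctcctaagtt

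Capitals mark matches to 4 motifs searched on both strands of the 250 bases before each RefSeq start. The TATA box was searched as TATAAA and lies in 12.4% of 32851 such windows. AP-2 was searched as GCCNNNGGC and lies in 13.7% of them. AP-1 was searched as TGANTCA and lies in 6.75% of them. Sp1 was searched as GGGCGG and lies in 32.7% of them. Krt18 held 1 AP-2 match, 83 bases before its start, and Krt5 and Krt8 held no match to any of the 4. The Krt7 window held 2 AP-2 and 4 Sp1 matches, which overlapped once and all lay past the first annotated exon base in that window. The window of Krt14 held none. The windows of both Krt7 and Krt14 lay inside the annotated gene. A match is a description of letters and was not tied to any level below.

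The names of the epithelial types were checked with markers that are not keratins. The summed level of 6 contractile and basal markers (Acta2, Myl9, Mylk, Myh11, Cnn1, Trp63) was 1218 to 12687 CPM in the myoepithelial cells of the 7 mice, against 9.46 to 29.2 CPM in HS cells. Pericytes, the contractile cells around small vessels, reached 2062 to 12786 CPM on this list, so it does not set the myoepithelial type apart from them. The 3 pericyte markers (Rgs5, Des, Notch3) summed to 1017 to 1706 CPM in pericytes and 0 to 15.6 CPM in myoepithelial cells. The 5 HS markers (Prlr, Pgr, Esr1, Cited1, Prom1) summed to 1286 to 2666 CPM in HS cells and 30.0 to 277 CPM in AV cells. The 6 AV markers (Mfge8, Trf, Csn3, Wfdc18, Ltf, Elf5) summed to 15257 to 25464 CPM in AV cells and 316 to 1078 CPM in HS cells. HS-AV cells carried both sets in the young mice (AV markers 2964 to 5915 CPM), but in the 3 aged mice with any, of 6, 6 and 4 cells, AV markers summed to 304 to 513 CPM, close to HS cells. Libraries held 1264 to 2865 cells and 6652599 to 16999625 UMIs. Barcodes were written in 2 parts in all 3 young mice and in 1 part in all 4 aged mice. The labels name no difference in handling. If the format marks one, it could not be told apart from age in any comparison below. Of the barcodes, 101 occurred in more than 1 mouse, covering 202 cells.

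Myoepithelial cells held Krt14 and Krt17 at similar high levels and Krt5 far lower. Krt14, the main type I chain of the basal layer, stood at 4152, 5402 and 6022 CPM in the myoepithelial cells of young mice A, B and C and at 4976, 5604, 5441 and 4853 CPM in those of aged mice A to D. Krt17, a type I chain of basal and stressed epithelia, reached 4382, 3102 and 4441 CPM in the young mice and 6184, 5804, 5941 and 5245 CPM in the aged mice. Krt5, the type II partner of KRT14, was lower, at 573, 496 and 549 CPM in the young mice and 288, 336, 354 and 284 CPM in the aged mice. Over the 7 mice the means were 5207 ± 606, 5014 ± 1102 and 411 ± 124 CPM (SD), and the Krt14 to Krt5 ratio of UMIs was 13.7 ± 3.94 (SD, n = 7 mice). Over mice, Krt14 averaged 145-fold, Krt17 102-fold and Krt5 64.5-fold the level of the next epithelial type, and in none of the 3 did the ranges overlap.

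Outside the myoepithelial layer these 3 genes were low. Krt14 averaged 30.9 ± 25 CPM in young and 39.8 ± 15.5 CPM in aged AV cells, and 8.48 ± 2.11 and 36.9 ± 25.4 CPM in HS cells. Fibroblasts held it at 13.5 ± 5.40 CPM in young and 38.9 ± 5.29 CPM in aged mice (SD, n = 3 and 4). The ranges of AV cells and fibroblasts overlapped at each age. Krt17 averaged 38.3 ± 8.87 CPM in young AV cells, where every mouse was above every young fibroblast and vascular endothelial value, the means of which were 9.23 ± 5.25 and 8.62 ± 8.54 CPM. In aged mice Krt17 averaged 44.5 ± 14.9 CPM in AV cells, 33.7 ± 21.8 CPM in fibroblasts and 47.1 ± 18.4 CPM in vascular endothelial cells, with overlap. Krt5 averaged 4.22 ± 2.24 CPM in AV, 2.39 ± 2.81 CPM in HS and 3.52 ± 4.59 CPM in fibroblasts (SD, n = 7). Fibroblasts and endothelial cells are not known to build these filaments. The source of the UMIs in these types was not tested. Within a mouse, AV cells were above HS cells in 6 of 7 mice for Krt5 and Krt17 and in 4 of 7 for Krt14, although the ranges over mice overlapped.

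Krt15 was the other myoepithelial keratin, at 914, 492 and 740 CPM in young and 127, 163, 148 and 80.4 CPM in aged mice. The young and aged mice did not overlap. Every mouse was above its own luminal cells, by 14.2-fold in the means over all 7 mice of myoepithelial over HS cells. By age, the myoepithelial and HS means were 715 and 16.5 CPM in young and 129 and 34.5 CPM in aged mice, a smaller gap. In HS cells Krt15 averaged 26.8 ± 18.5 CPM (SD, n = 7), while in AV cells it averaged 3.14 ± 4.20 CPM and in fibroblasts 1.16 ± 2.34 CPM. The HS value came from few cells: at 2000 UMIs per cell, 2.03% ± 0.927 of HS cells (SD, n = 7) held a Krt15 UMI. Before thinning, 5.56% of HS cells and 0.34% of fibroblasts held one, with 3.85 and 1.30 Krt15 UMIs per positive cell.

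Krt8, the main luminal type II chain, stood at 3760, 4428 and 4831 CPM in HS cells of the young mice and 3559, 3829, 4080 and 3551 CPM in those of the aged mice. Krt18, its type I partner, stood at 6580, 5924 and 7512 CPM in young and 5015, 6279, 6506 and 5879 CPM in aged HS cells. In AV cells Krt8 spread more, from 1845 to 4253 CPM, and Krt18 from 2839 to 6428 CPM. The pair kept nearly 1 ratio: Krt18 UMIs per Krt8 UMI were 1.56 ± 0.144 in HS and 1.51 ± 0.110 in AV cells (SD, n = 7), with 1.34 to 1.75 and 1.35 to 1.66 over the mice. In myoepithelial cells the ratio was 0.660 ± 0.195, and Krt8 exceeded Krt18 in 6 of the 7 mice. The ranges of both in HS, HS-AV and AV cells overlapped, yet within a mouse HS cells were above AV cells in 7 of 7 mice for each gene. HS-AV cells held no fixed place, with Krt8 below HS cells in 5 of 6 mice and Krt18 in 3 of 6. Myoepithelial cells lay below AV cells in 7 of 7 mice without overlap.

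Krt19, a type I chain with a very short tail, divided the luminal types. It stood at 5984, 5578 and 6214 CPM in young and 5441, 5951, 6521 and 5987 CPM in aged HS cells, but at 1238, 1228 and 1832 CPM in young and 1259, 1029, 856 and 532 CPM in aged AV cells. HS-AV cells lay between, from 2793 to 5208 CPM in the 6 mice that had them, and none of the 3 ranges overlapped. As a share of Krt18, Krt19 was 0.962 ± 0.0831 in HS, 0.667 ± 0.163 in HS-AV and 0.261 ± 0.0934 in AV cells.

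Krt7 followed the same order at a lower level. HS cells held 1311, 1249 and 1201 CPM in young and 950, 1332, 822 and 1073 CPM in aged mice, and HS-AV cells 580 to 1136 CPM. AV cells held 135, 131 and 185 CPM in young and 67.0, 118, 42.5 and 68.0 CPM in aged mice. HS cells were above HS-AV cells in 6 of 6 mice, although the ranges overlapped, and HS-AV cells did not overlap AV cells. Myoepithelial cells averaged 22.5 ± 17.0 CPM, close to the 15.9 ± 12.6 CPM of vascular endothelial cells (SD, n = 7).

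**Figure D1:**
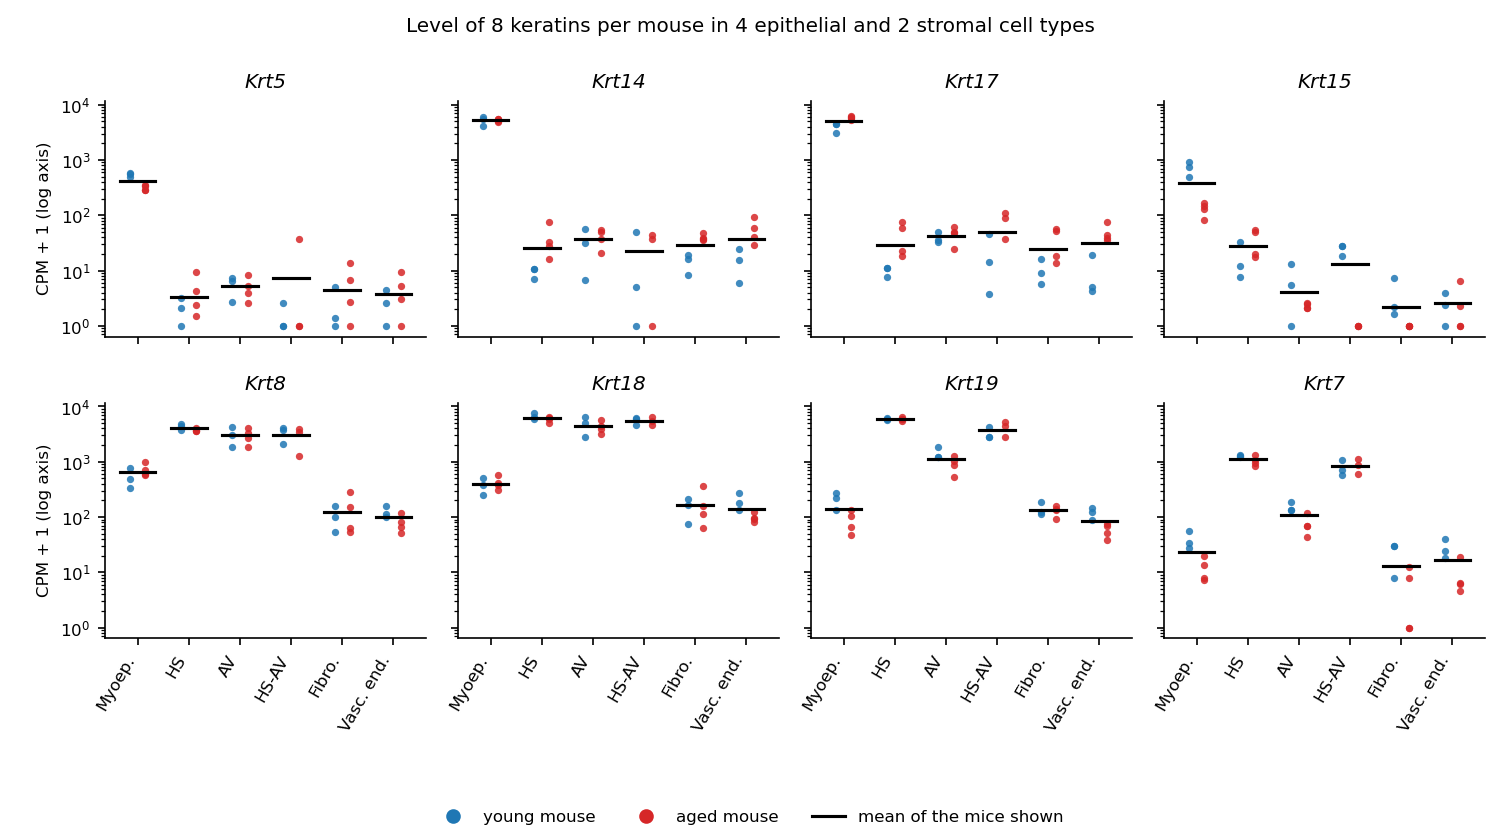
Level of each keratin as CPM + 1 on a log axis, with 1 point per mouse (blue young, red aged) and a bar at the mean, in 4 epithelial types, fibroblasts and vascular endothelial cells. Krt5, Krt14, Krt17 and Krt15 stand high in myoepithelial cells, Krt8 and Krt18 in all luminal types, and Krt19 and Krt7 step down from HS to HS-AV to AV cells.

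Among the 9 stromal and immune types, T and B cells, with 60 cells in all, had the highest mean of 7 of the 8 keratins. Krt18 led at 1186 ± 744 CPM, with 118 to 2163 CPM over 7 mice. These were 4 to 19 cells per mouse. Of the 9 types they also had the highest mean of the AV markers, 2869 ± 3875 CPM, and of the epithelial marker Epcam, 411 ± 393 CPM. The source of the keratin UMIs in T and B cells was not tested. Fibroblasts (1993 cells) held 165 ± 103 CPM of Krt18, 123 ± 83.7 CPM of Krt8 and 133 ± 30.2 CPM of Krt19. Krt8 averaged 678 ± 520 CPM in T and B cells, 570 ± 673 CPM in NK cells (n = 5) and 470 ± 296 CPM in Ma macrophages (n = 3), near the 641 ± 216 CPM of myoepithelial cells. Krt8 in myoepithelial cells, at 333, 762 and 490 CPM in young and 723, 572, 1009 and 598 CPM in aged mice, was above every fibroblast and vascular endothelial value, the highest of which was 283 CPM. Krt18 in myoepithelial cells was 251 to 568 CPM, a range that overlapped the 63.3 to 366 CPM of fibroblasts. Krt19 in myoepithelial cells averaged 139 ± 80.6 CPM, and fibroblasts ran from 91.4 to 184 CPM.

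The 13 type means give the likeness of the patterns, as Pearson's r over log2(CPM + 1) with no test, since types share libraries. Of 11615 genes with at least 10 CPM in some type, Krt18 was the most like Krt8 (r = 0.98) and the reverse. Krt7 was most like Ly6d, Foxa1 and Prlr (r = 0.98 to 0.99), and Krt19 was most like Krt7, Dkkl1 and Ly6d. Krt5 was most like Krt17 (r = 0.92), then Gpx2 and Gm21149, and Krt17 most like 4631405K08Rik (r = 0.96), then Gpx2 and Irx4. Krt14 was most like Il17b (r = 0.93), Gm21190 and Krt17. Krt15 stood furthest apart, its nearest being Fermt1 (r = 0.87), Aqp3 and Kctd1.

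Read as a whole, the 8 keratins made up 1.22% ± 0.115 of myoepithelial, 1.74% ± 0.141 of HS, 1.33% ± 0.287 of HS-AV (n = 6) and 0.886% ± 0.25 of AV UMIs (SD, n = 7 elsewhere), against 0.0489% ± 0.0190 in fibroblasts. In myoepithelial cells Krt14 took 42.7% ± 4.02 and Krt17 40.8% ± 7.12 of these UMIs. In HS cells Krt18 took 35.7% ± 1.61, Krt19 34.3% ± 1.90 and Krt8 23.0% ± 1.69, while in AV cells Krt18 took 50.9% ± 2.85 and Krt8 33.7% ± 2.52. Type I genes gave 91.2% ± 1.69 of keratin UMIs in myoepithelial, 70.5% ± 1.91 in HS and 65.0% ± 1.95 in AV cells. Counted in UMIs the chains were thus far from 1 to 1, most of all in the myoepithelial layer. How evenly the UMIs of different genes reflect their transcripts was not tested.

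**Figure D2:**
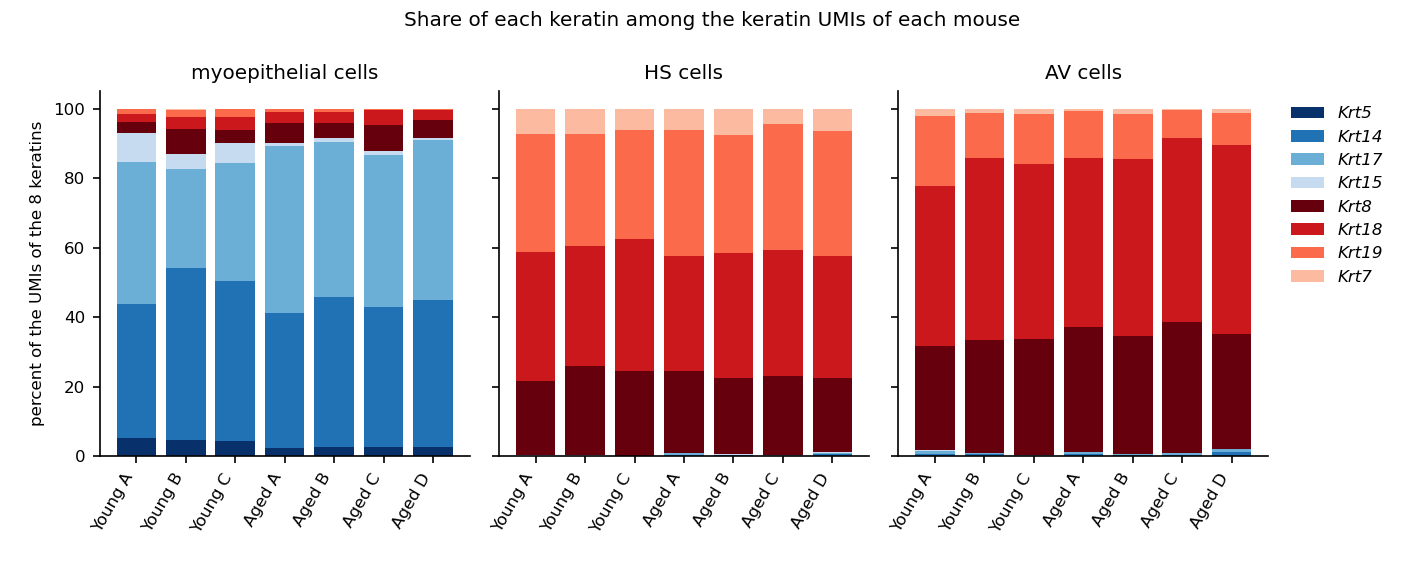
Percent of the UMIs of the 8 keratins that each keratin gave, stacked to 100% per mouse, in myoepithelial, HS and AV cells (blue shades for the 4 myoepithelial and red shades for the 4 luminal keratins). Krt14 and Krt17 fill most of each myoepithelial bar, Krt8, Krt18 and Krt19 most of each HS bar, and Krt8 with Krt18 most of each AV bar.

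The first comparison the design allows is aged against young in myoepithelial cells. Krt15, Krt19, Krt7 and Krt5 fell and Krt17 rose, so 5 of the 8 keratins were called, at an adjusted p under 0.05 and an at least 1.5-fold change in edgeR's quasi-likelihood test on UMIs summed per mouse. By the same rule 27.6% of 6740 genes were called, 14.8% lower and 12.8% higher in aged mice, so changes were common in this layer. Ranges of young and aged mice did not overlap for the same 5 keratins, and for 34.8% of all genes. For Krt19 the gap was narrow, with 143 of 1059082 myoepithelial UMIs in young mouse A and 143 of 1088520 in aged mouse A. The median log2 fold change was -0.28 over the 8 keratins and 0.01 over all genes tested.

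Krt15 showed the largest change of the 8, from 715 ± 212 CPM (SD, n = 3) to 129 ± 35.9 CPM (n = 4), a 5.26-fold fall (log2 fold change -2.40, SE 0.25, adjusted p = 7.69e-06). It was called under each of the 17 alternative settings tried. Krt5 fell 1.60-fold, from 539 ± 39.2 to 315 ± 34.9 CPM (log2 fold change -0.68, SE 0.18, adjusted p = 0.0113). Krt14, the partner of KRT5, was not called, at 5192 ± 953 and 5219 ± 361 CPM (log2 fold change 0.12, SE 0.20, adjusted p = 0.690).

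Krt17 rose 1.56-fold, from 3975 ± 757 to 5794 ± 398 CPM (log2 fold change 0.64, SE 0.21, adjusted p = 0.0277). This call was lost in some fits that left out 1 mouse. The adjusted p was 0.0660 without young mouse A, 0.106 without young B, 0.0554 without aged B and 0.0585 without aged C. Over the fits without 1 mouse the log2 change ran from 0.48 to 0.78. With plain totals in place of scaling factors its change, 0.53 on the log2 scale, fell short of 1.5-fold. Krt14 and Krt17 share 9.53% of the 50-base words in the last 500 bases of their transcripts with each other or Krt16. Only a read that lay wholly within such words could not be assigned to 1 gene. How many reads did so was not tested.

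Among the luminal chains in this layer, Krt19 fell 2.16-fold, from 208 ± 69.2 to 86.9 ± 37.5 CPM (log2 fold change -1.11, SE 0.29, adjusted p = 0.00945). Krt7 fell 2.58-fold, from 37.7 ± 14.5 to 11.1 ± 5.83 CPM (log2 fold change -1.36, SE 0.40, adjusted p = 0.0171). The Krt19 call was lost when a minimum fold was also required in every pair of mice. Without young mouse C the adjusted p of Krt19 was 0.0846, and without young mouse B that of Krt7 was 0.0659. Both levels were low, and stromal cells held these genes too. Krt7 went from 21.5 ± 12.7 to 4.60 ± 5.64 CPM in fibroblasts and from 26.4 ± 10.8 to 8.02 ± 6.80 CPM in vascular endothelial cells. Krt19 went from 139 ± 39.3 to 129 ± 27.2 CPM in fibroblasts, with overlap, and from 117 ± 28.2 to 58.0 ± 16.8 CPM in vascular endothelial cells, without. The part of these stromal levels in the 2 falls was not tested. Krt8 (log2 fold change 0.60, SE 0.26, adjusted p = 0.0882) and Krt18 (0.25, SE 0.25, adjusted p = 0.479) were not called. Without young mouse B, which held 40 myoepithelial cells, Krt8 was called higher, at an adjusted p of 0.0203.

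Other genes of the layer moved in the same mice. All 6 contractile and basal markers were lower in aged mice, their sum going from 6183 to 12687 CPM in the young to 1218 to 2861 CPM in the aged, with Acta2, the smooth muscle actin, at 7225 and 1279 CPM. Epcam, an adhesion protein typical of luminal cells, averaged 442 CPM in young and 1780 CPM in aged myoepithelial cells. Of the 6 AV markers 4 were higher in aged mice, but their sum, 1347 to 1427 CPM in young and 1025 to 1680 CPM in aged mice, overlapped. The 4 fibroblast markers summed to 29.5 to 208 CPM in young and 3.08 to 25.7 CPM in aged mice, the 5 HS markers to 45.3 to 108 and 9.23 to 37.7 CPM, and the 2 immune markers to 157 to 237 and 34.1 to 71.3 CPM. The part of these differences in the keratin results was not tested. Young mice B and C gave 40 and 54 myoepithelial cells, and the other mice gave 187 or, in the aged group, 125 to 662.

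The share of cells with a UMI was compared at 2000 UMIs per cell, since the median depth was 4760 to 5227 UMIs in young and 3797 to 4856 UMIs in aged myoepithelial cells. Krt15 was found in 54.5%, 30.0% and 42.6% of the myoepithelial cells of young mice and in 9.54%, 12.5%, 13.6% and 7.06% of those of aged mice. Before thinning the means were 57.9% and 14.6%, and positive cells held 6.73 and 4.18 Krt15 UMIs, so both the share and the amount per positive cell were lower in the aged mice. In fibroblasts the thinned share of Krt15 averaged 0.0876% over 7 mice, at a median depth of 4414 UMIs. Krt5 was found in 60.4%, 60% and 55.6% of young and in 42.4%, 42%, 46.4% and 37.4% of aged myoepithelial cells. Neither gene's mice overlapped between ages (exact two-sided permutation test over 35 divisions, p = 0.0286 each, the smallest it can give, adjusted over 24 tests to 0.171). Krt7 (7.58% and 1.85%) and Krt17 (94.5% and 97.6%) gave the same exact p and adjusted value. No test of this family passed the correction, which at this smallest p would need many of the 24 tests to reach it together.

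**Figure D3:**
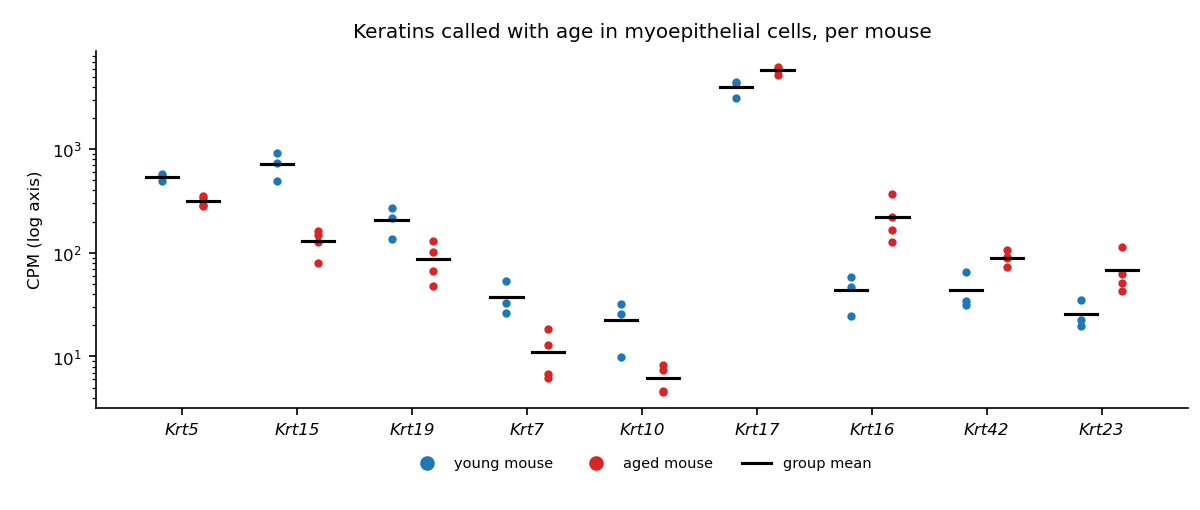
CPM on a log axis, 1 point per mouse with a bar at the group mean, of the keratins called with age in myoepithelial cells, members and others. Krt5, Krt15, Krt19, Krt7 and Krt10 lie lower in the aged mice and Krt17, Krt16, Krt42 and Krt23 higher, with no overlap between ages for any of the 9.

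Of the 43 other keratins, 26 had a UMI in epithelial cells. In myoepithelial cells 4 passed the filter on low counts and all 4 were called with age, where 27.6% of all genes were. None of 6 tested in HS and none of 4 tested in AV cells was called, beside 6.26% and 6.16% of all genes. Krt16, a type I chain of activated epidermis, rose from 47.2, 24.6 and 58.4 CPM to 221, 127, 166 and 366 CPM (log2 fold change 2.39, SE 0.39, adjusted p = 0.000334), with the overlap in sequence with Krt14 and Krt17 given above. Krt42, a type I gene of the same chromosome cluster, rose from 31.2, 34.4 and 64.9 CPM to 107, 89.2, 90.8 and 72.5 CPM (1.22, SE 0.27, adjusted p = 0.00303). Krt23 also rose (1.35, SE 0.40, adjusted p = 0.0197), and Krt10, a type I chain of differentiating epidermis, fell (-1.91, SE 0.39, adjusted p = 0.00202). Krt16 averaged 144 ± 120 CPM and Krt42 69.9 ± 28.7 CPM in myoepithelial cells, and no other keratin outside the 8 reached a mean of 50 CPM in an epithelial type.

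In HS cells, 2 of the 7 keratins tested were called, Krt14 and Krt17, both higher in aged mice. By the same rule 6.26% of 8457 genes were called, and 3.93% were called higher. Krt14 went from 9.84, 9.55 and 6.05 CPM to 32.5, 26.8, 14.9 and 73.3 CPM (log2 fold change 2.29, SE 0.47, adjusted p = 0.0196). Krt17 went from 10.2, 10.1 and 6.70 CPM to 74.0, 17.0, 21.7 and 58.0 CPM (2.38, SE 0.46, adjusted p = 0.0161). No aged mouse overlapped the young, as for 22.0% of all genes in this type. Both genes were also higher in aged mice in cells that should lack them. Krt14 went from 13.5 ± 5.40 to 38.9 ± 5.29 CPM in fibroblasts and from 14.3 ± 9.24 to 54.0 ± 28.1 CPM in vascular endothelial cells, and Krt17 from 9.23 ± 5.25 to 33.7 ± 21.8 CPM and from 8.62 ± 8.54 to 47.1 ± 18.4 CPM. The means in HS cells, 8.48 and 36.9 CPM for Krt14 and 8.99 and 42.7 CPM for Krt17, were close to these, and the part of these stromal levels in the 2 calls was not tested.

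Both HS calls were also lost in some fits that left out 1 mouse. Without 1 mouse the log2 change ran from 1.73 to 2.53 for Krt14 and from 2.00 to 2.67 for Krt17. Calls over all genes also went from 529 to 206, 240 and 134 without young mouse A, B or C. The adjusted p of Krt14 was 0.0516, 0.0534 and 0.0952 without young mouse A, B or C, and that of Krt17 was 0.0811 without young C. Without aged mouse D the change of Krt14 was 1.73 on the log2 scale. The 4 keratins that HS cells hold at high levels were not called: Krt7 (-0.13, SE 0.21), Krt8 (-0.10, SE 0.18), Krt18 (-0.05, SE 0.20) and Krt19 (0.13, SE 0.18) had log2 fold changes near 0 with adjusted p from 0.707 to 0.924. Krt15 was not called (1.33, SE 0.56, adjusted p = 0.179), and Krt5, with 26 UMIs in all, did not pass the filter on low counts.

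**Figure D4:**
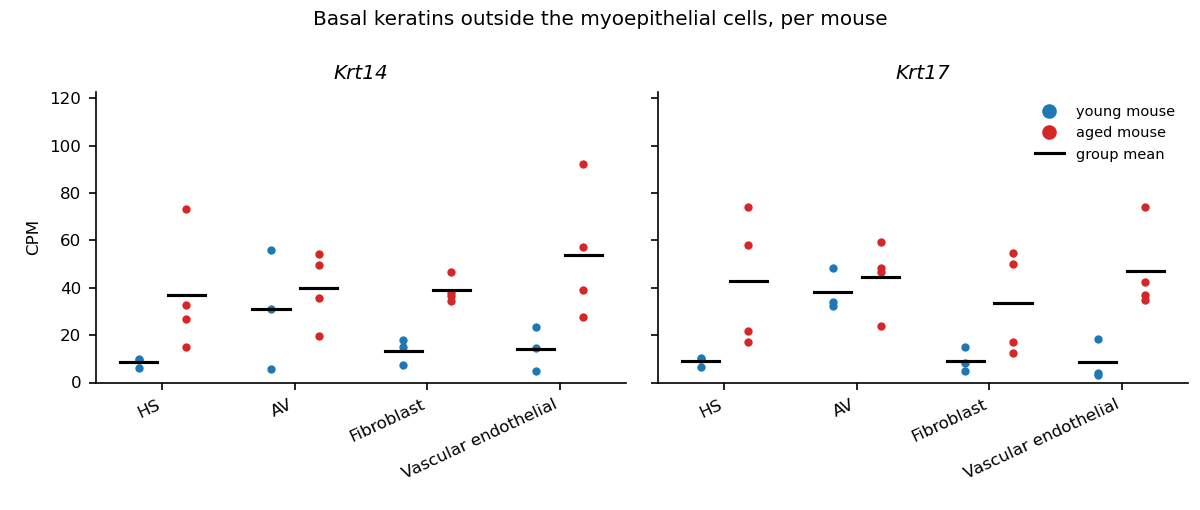
CPM of Krt14 and Krt17 per mouse, with a bar at each group mean, in HS and AV cells and in fibroblasts and vascular endothelial cells. In HS cells, fibroblasts and vascular endothelial cells the means of the aged mice (red) are above those of the young (blue) for both genes, with means of 8.48 to 14.3 CPM in young and 33.7 to 54.0 CPM in aged mice.

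In AV cells, none of the 7 keratins tested was called by edgeR or by DESeq2, where 6.16% of 11012 genes were called by edgeR. On simulated AV counts the edgeR fit called 20% of 2-fold changes, so a change of that size can go uncalled. The simulation changed 200 genes of any level, fewer than the 678 called in the data. Its rate therefore need not hold for these keratins. At an unadjusted p under 0.05, 1 of the 7 passed, Krt7, with a log2 fold change of -0.78 (SE 0.29, adjusted p = 0.134), where 23.2% of all AV genes did. Its young and aged mice did not overlap, as for 25.6% of all AV genes, and without aged mouse B it was called lower, at an adjusted p of 0.0346. Krt19 averaged 1433 ± 346 CPM in young and 919 ± 306 CPM in aged mice (-0.39, SE 0.26, adjusted p = 0.424), and the groups touched, since aged A at 1259 CPM was above young A and B. Krt8 (0.22, SE 0.31) and Krt18 (0.12, SE 0.29) had adjusted p of 0.740 and 0.851. With plain totals, under which the median over all AV genes was -0.25 on the log2 scale, their changes were -0.04 and -0.14, so no direction is read for them. Krt14 (30.9 and 39.8 CPM in young and aged mice) and Krt17 (38.3 and 44.5 CPM) were not called, at adjusted p of 0.434 and 0.406. In young mice these means were above the fibroblasts' 13.5 and 9.23 CPM, with ranges that overlapped for Krt14 and not for Krt17. Krt15, with 72 UMIs in all, did not pass the filter, and was called when young mouse B was left out and it passed.

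**Figure D5:**
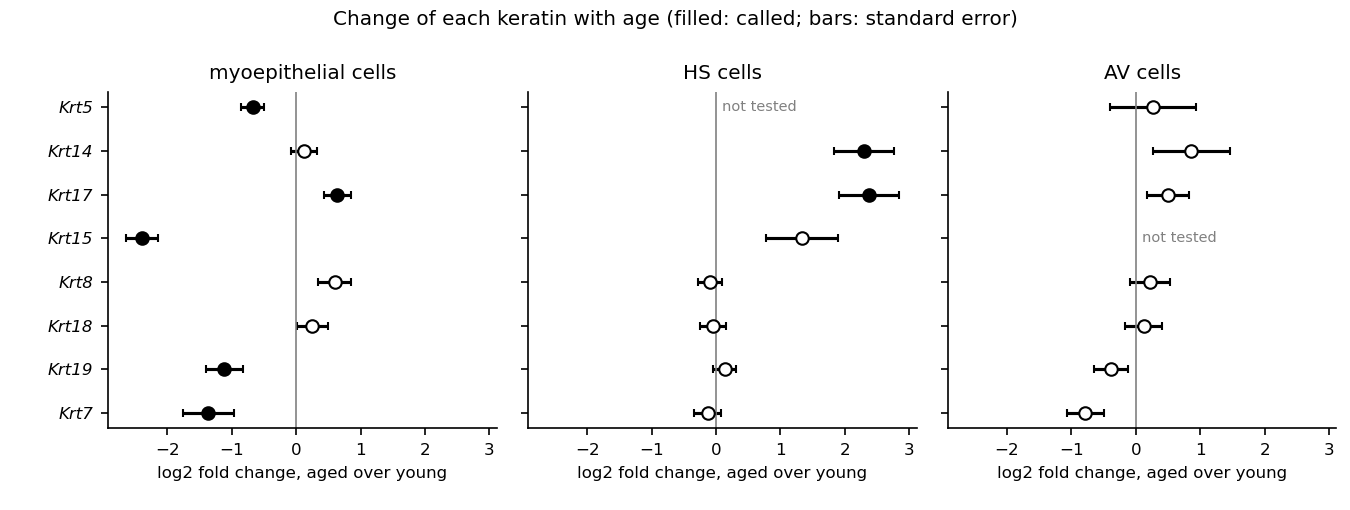
Log2 fold change of aged over young mice with its standard error for the 8 keratins in myoepithelial, HS and AV cells, filled where called. Krt5, Krt15, Krt19 and Krt7 lie left of 0 and Krt17 right of it in myoepithelial cells, only Krt14 and Krt17 are filled in HS cells, and none is filled in AV cells.

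Whether age acted differently in one type than in another was tested on the difference in log2(CPM + 1) between 2 types of the same mouse, for 8 genes and 3 pairs of types. Krt15 gave the largest difference: its myoepithelial level stood 5.59 ± 0.93 above its HS level in young and 2.02 ± 1.08 in aged mice, an aged minus young difference of -3.57 (exact permutation p = 0.0286, adjusted p = 0.196). Krt7 between myoepithelial and HS cells (-1.45) and Krt19 between myoepithelial and AV cells (-0.61) had the same exact p and adjusted value. None of the 24 differences passed the correction, so no keratin is shown to change in one epithelial type and not in another. The p of 0.0286 is the smallest that 7 mice allow. A difference could pass the correction over 24 tests only if many others also reached that p, so these tests cannot decide.

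The summed keratin output did not separate the ages. The 8 keratins gave 1.08%, 1.09% and 1.31% of myoepithelial UMIs in young and 1.28%, 1.30%, 1.35% and 1.14% in aged mice, and the ranges overlapped (exact permutation p = 0.229, adjusted p = 0.429). In HS cells the means were 1.82% ± 0.137 and 1.68% ± 0.127, and in AV cells 0.949% ± 0.329 and 0.838% ± 0.215 (adjusted p = 0.429 and 0.600, exact permutation tests). The type I share was 90.4% ± 2.09 and 91.7% ± 1.30 in myoepithelial, 69.3% ± 2.16 and 71.4% ± 1.29 in HS, and 66.4% ± 1.29 and 63.9% ± 1.73 in AV cells, young and aged in turn (adjusted p from 0.257 to 0.371, exact permutation tests). Of the UMIs of the 8 keratins in myoepithelial cells, Krt15 gave 4.51% to 8.49% in young and 0.70% to 1.3% in aged mice.

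The keratins of the opposite layer were counted per cell as well. At 2000 UMIs, 71.3% ± 6.71 of young and 77.5% ± 4.21 of aged myoepithelial cells held a UMI of Krt8, Krt18 or Krt19, against 36.5% ± 8.28 and 47.2% ± 3.03 of fibroblasts. Unthinned, 91.7% and 93.7% of myoepithelial cells did. Of HS cells, 2.70% ± 1.06 in young and 12% ± 5.14 in aged mice held a UMI of Krt5, Krt14 or Krt17, and of AV cells 8.16% ± 4.05 and 12.2% ± 4.95. Fibroblasts held these at 2.95% ± 2.10 and 10.3% ± 2.53, close to HS cells at each age. The mean of young AV cells was above that of young fibroblasts, but the ranges, 3.48% to 10.6% and 1.35% to 5.34%, overlapped. None of the 3 age tests passed (exact permutation p = 0.0857 in HS cells, adjusted p = 0.257). The median depth was 7277 UMIs in HS, 6632 in AV, 4431 in myoepithelial cells and 4414 in fibroblasts.

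Partner genes of the keratin filament are described by list. The hemidesmosome ties KRT5 and KRT14 filaments to the basement membrane. In myoepithelial cells 2 of the 4 genes listed for it here were called lower, beside 14.8% of all genes there. Itgb4, the integrin β4 subunit, went from 43.6 to 11.1 CPM (log2 fold change -1.80, SE 0.31, adjusted p = 0.000562). Col17a1, its collagen XVII, went from 107 to 50.2 CPM (-0.89, SE 0.28, adjusted p = 0.0273). Itga6 (0.0036, SE 0.23) and Cd151 (0.33, SE 0.20), the others on the list, did not fall and were not called. Of 5 plakins and linkers, counted apart from the hemidesmosome list, 2 (Plec and Dst) were tested in myoepithelial and 4 in AV cells. Dst was called higher in the first (0.73, SE 0.22) and lower in the second (-1.11, SE 0.21), at adjusted p of 0.0195 and 0.0138. Plec was called in neither. Of 10 desmosome genes, 6 were tested in myoepithelial, 7 in HS and 8 in AV cells. Pkp3 was called higher in myoepithelial cells (0.62, SE 0.21) and Pkp2 in HS cells (0.81, SE 0.18), and none in AV cells. In these types 12.8% and 3.93% of all genes were called higher in myoepithelial and HS cells, and 3.26% lower in AV cells. The median log2 fold change was -0.44 over the 4 listed hemidesmosome and 0.48 over the 6 tested desmosome genes in myoepithelial cells, where that over all genes was 0.01.

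Of 12 regulators of keratin genes, 8 were tested in myoepithelial cells, 3 were called higher and 1 lower, beside 12.8% and 14.8% of all genes. Ovol1, a zinc finger repressor, averaged 9.36 CPM in young and 36.1 CPM in aged mice (1.64, SE 0.40, adjusted p = 0.00638). Elf3, an epithelial ETS factor, averaged 15.3 and 37.4 CPM (1.88, SE 0.42, adjusted p = 0.00361), and Ehf, of the same family, 1.71 and 11.4 CPM (2.52, SE 0.71, adjusted p = 0.0141). The young level of Ehf was very low. In AV cells Ovol1 averaged 46.7 and 35.6 CPM, Elf3 126 and 165 CPM, and Ehf 131 and 189 CPM, young and aged in turn. The part of these AV levels in the rises was not tested. Tfap2c, which encodes AP-2γ, averaged 115 and 57.6 CPM (-0.80, SE 0.23, adjusted p = 0.0141). In HS cells Klf4 was called higher of 9 tested (0.88, SE 0.21, adjusted p = 0.0372), beside 3.93% of all genes there. In AV cells none of 10 was called, beside 6.16% of all genes in either direction. Of 6 other intermediate filament genes, 5 were tested in myoepithelial and 4 in AV cells. Vim, the vimentin of mesenchymal cells, was called higher in myoepithelial cells (286 and 649 CPM, adjusted p = 0.00165), beside 12.8% of all genes there. It was called lower in AV cells (42.6 and 16.8 CPM, adjusted p = 0.0238), beside 3.26% of all genes there.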

How the data were processed

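The authors deposited unnormalized UMI counts for every gene in each cell, with a table naming each cell's mouse and type, made from 10x 3′ v2 libraries with Cell Ranger 2.0 on mm10 and filtered by them on UMIs, genes and mitochondrial share. Deposited cells held 2714 to 17158 UMIs. Counts were summed per mouse and type with Python 3.11.15. Age was tested per type with edgeR 4.0.16 in R 4.3.3 (filterByExpr, TMM, quasi-likelihood, Benjamini-Hochberg over all genes tested, fold minimum 1.5). Standard errors were derived from the test statistic. Up to 17 alternative settings were tried, DESeq2 1.42.0 among them. Shares of cells used UMIs thinned to 2000 per cell. Shares of cells, keratin shares of UMIs and cell-type contrasts were compared by exact two-sided permutation tests over the 35 divisions of 7 mice. Doublets were called per mouse with Scrublet in scanpy 1.11.5 (expected rate 0.06), which marked 73 of 13684 cells, and were left out only as an alternative. The fits were tested on simulated counts with 200 changed genes of any level. More genes than that were called in the data in each type, so the rates need not hold there. In myoepithelial, HS and AV cells they called 32%, 46% and 20% of 2-fold changes. Of 4-fold changes they called 78%, 85% and 79%, with 5, 7 and 4 false calls.

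Named genes were the 8 keratins in 13 types, other keratins called with age or averaging at least 50 CPM in an epithelial type, partner genes called with age, and the 3 genes most like each keratin. The keratins and lists were chosen with earlier results of these data known. The mice are the replicates, and cells were never treated as replicates. Positions came from GENCODE M21 and upstream sequences from RefSeq, both GRCm38. No start window was used for Krt15, Krt17 and Krt19.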

Additional observations from a re-analysis of the deposited data

How the results depend on the processing

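Mice of the same letter are different animals and did not deviate together (correlations of -0.16 to 0.07 over genes). With the letter as a replicate block, 4 keratins were called in myoepithelial cells (Krt17 lost, adjusted p = 0.0861), 2 in HS (Krt14 at 1.61 on the log2 scale) and 0 in AV cells. Sums thinned to the lowest total gave 3 in myoepithelial and 0 in HS cells, and no filter on low counts gave 1 in AV cells (Krt15) and exchanged Krt5 (adjusted p = 0.0702) for Krt8 in myoepithelial cells. Leaving out 1 mouse gave 4 to 5, 0 to 2 and 0 to 1 calls. Other settings kept each count within 1.5 times, including plain totals, an alternative chosen after seeing the data. Calls over all genes were 1860, 529 and 678 in myoepithelial, HS and AV cells, 679, 281 and 200 thinned, 2222, 1215 and 935 with no filter, 1269, 165 and 424 with the block, 1363, 574 and 977 by DESeq2 and 1805, 462 and 1039 with plain totals. With a minimum fold also in every pair of mice they were 1198, 419 and 607. Leaving out 1 mouse gave 977 to 1829, 134 to 554 and 201 to 619. Signs of changes near 0 turned, with the cause not tested. In myoepithelial cells Krt14 was -0.029 thinned, -0.00086 with plain totals and -0.018 to 0.29 without 1 mouse, and Krt18 was -0.011 to 0.58 without 1 mouse. Krt18 in HS cells was -0.12 to 0.067 without 1 mouse. In AV cells Krt5 was -0.076 with the replicate block and -0.041 with plain totals, Krt8 -0.044 and Krt18 -0.14 with plain totals, and without 1 mouse these were -0.30 to 0.89, -0.055 to 0.55 and -0.16 to 0.41. Among shares of cells (percentage points, aged minus young), those reversed without thinning were Krt5 (0.850) and Krt15 (-1.02) in AV and Krt7 (0.836), Krt8 (0.0425) and Krt19 (0.118) in HS cells. With at least 2 UMIs, AV shares reversed for Krt8 (-2.76), Krt14 (-0.365), Krt15 (-0.154), Krt17 (-0.131) and the basal keratins together (-0.587). The 40 and 54 myoepithelial cells of young B and C limit the precision there, and with 3 against 4 mice no exact p falls below 0.0286.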

Other observations

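Over the 30 sets of 4 aged mice examined (the 8 keratins, their summed share and the type I share in 3 cell types), no mouse stood apart from its group by Dixon's ratio. Among keratins outside the 8, HS cells held Krt6a at 33.4 ± 17.1 CPM and Krt4 at 33.3 ± 21 CPM (SD, n = 7 mice), chosen after their values were seen. In AV cells these averaged 2.28 ± 3.18 and 1.72 ± 1.64 CPM, and in myoepithelial cells 2.28 ± 2.44 and 0.743 ± 1.20 CPM.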
